A study of Mus musculus with 8 samples.

Results

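The serum amyloids A (Saa1 to Saa4), the pentraxins C-reactive protein (Crp) and serum amyloid P (Apcs), and the plasma proteins haptoglobin (Hp), hemopexin (Hpx), ceruloplasmin (Cp) and lipopolysaccharide-binding protein (Lbp) make up a list of 10 genes of the hepatic acute phase, examined here in fatty liver with and without rilpivirine. A gene was taken where a probe set of the array was annotated to its symbol and to no other, and the brightest row on average was to be used where a symbol had several. This gave 9 of the 10 genes, with a single probe set each, of 22180 genes named in this way. Saa1 had no probe set of its own: the only one listed for it is listed for Saa2 as well. All 9 genes lay above the filter on low values (a mean of 2.72 on the log2 scale), which 16635 genes passed. Their mean levels stood between the 76.6th percentile of the 22180 genes (Saa3) and the 99.9th (Hpx).

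Liver RNA of 8 samples from wild-type C57BL/6 mice was measured on 1-colour Affymetrix arrays, with 1 array for each sample: 4 samples were from the rilpivirine group and 4 from the control group. Rilpivirine is a non-nucleoside inhibitor of the HIV reverse transcriptase, given here by mouth every day at a dose described as matching clinical use. Both groups are labelled as non-alcoholic fatty liver disease, so the comparison is of the drug within fatty liver and there is no healthy reference. The protocol names a normal diet and a diet with 60% fat over 3 months but does not assign them to samples, and it gives neither the age of the mice nor the agent given to controls. Nothing in the labels ties a sample to its own animal, so the p-values measure the spread between these samples, which may be technical.

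The acute phase response is the change in the secretory programme of hepatocytes that follows infection or tissue injury. Interleukin 6, acting through its receptor and the transcription factor STAT3, and interleukin 1, acting through NF-κB and C/EBP factors, raise the transcription of plasma proteins such as the serum amyloids and haptoglobin. Serum amyloid A1 and A2 are carried on high-density lipoprotein and are strongly induced in mouse liver, serum amyloid A3 is made in liver and in macrophages and fat, and serum amyloid A4 is the constitutive form. In the mouse, in contrast to humans, serum amyloid P is the more inducible of the pentraxins and C-reactive protein is only a minor acute phase protein.

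The array medians ran from 3.33 to 3.45 log2 and the correlations between arrays over all probe sets from 0.955 to 0.986, with the lowest mean correlation (0.965) for rilpivirine replicate 2. That array also had the highest mean level of 81 probe sets of small nucleolar and Cajal body RNAs, 0.49 log2 above the mean of the 8 arrays, and control replicate 1 had the lowest, at -0.59. Alb (albumin), a hepatocyte marker, lay between 13.22 and 13.37 log2 in all samples, and averaged 13.30 with rilpivirine and 13.25 in controls. The highest value of any probe set was 13.4, so Alb lay near the top of the scale. Whether its probe set could show a change in hepatocyte content was not tested. All 12 hepatocyte markers had a mean above the filter, but so had all 10 Kupffer cell markers, so passing it does not mark hepatocytes.

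The 3 measurable serum amyloids were the members with the largest differences, and all 3 were lower in the rilpivirine group. Saa2 was 2.25-fold lower, Saa3 1.76-fold lower and Saa4 1.48-fold lower, while the other 6 members differed by 1.31-fold or less. No member passed the threshold over all genes, and in no member were the groups fully apart. With limma, 0 of 9 members and 0% of the 16635 genes passed an adjusted p of 0.05. At an unadjusted p under 0.05, 3 of 9 members were lower and 0 were higher, where 3.21% of all genes tested were lower. Of the 9 members 8 had a lower mean with rilpivirine, against 56.9% of all genes tested, and the median log2 difference of the members was -0.28 against -0.03 over all genes. The ranges of the groups were apart in 0 of 9 members, against 3.04% of all genes tested, or 1.73% in the lower direction.

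**Figure D1:**
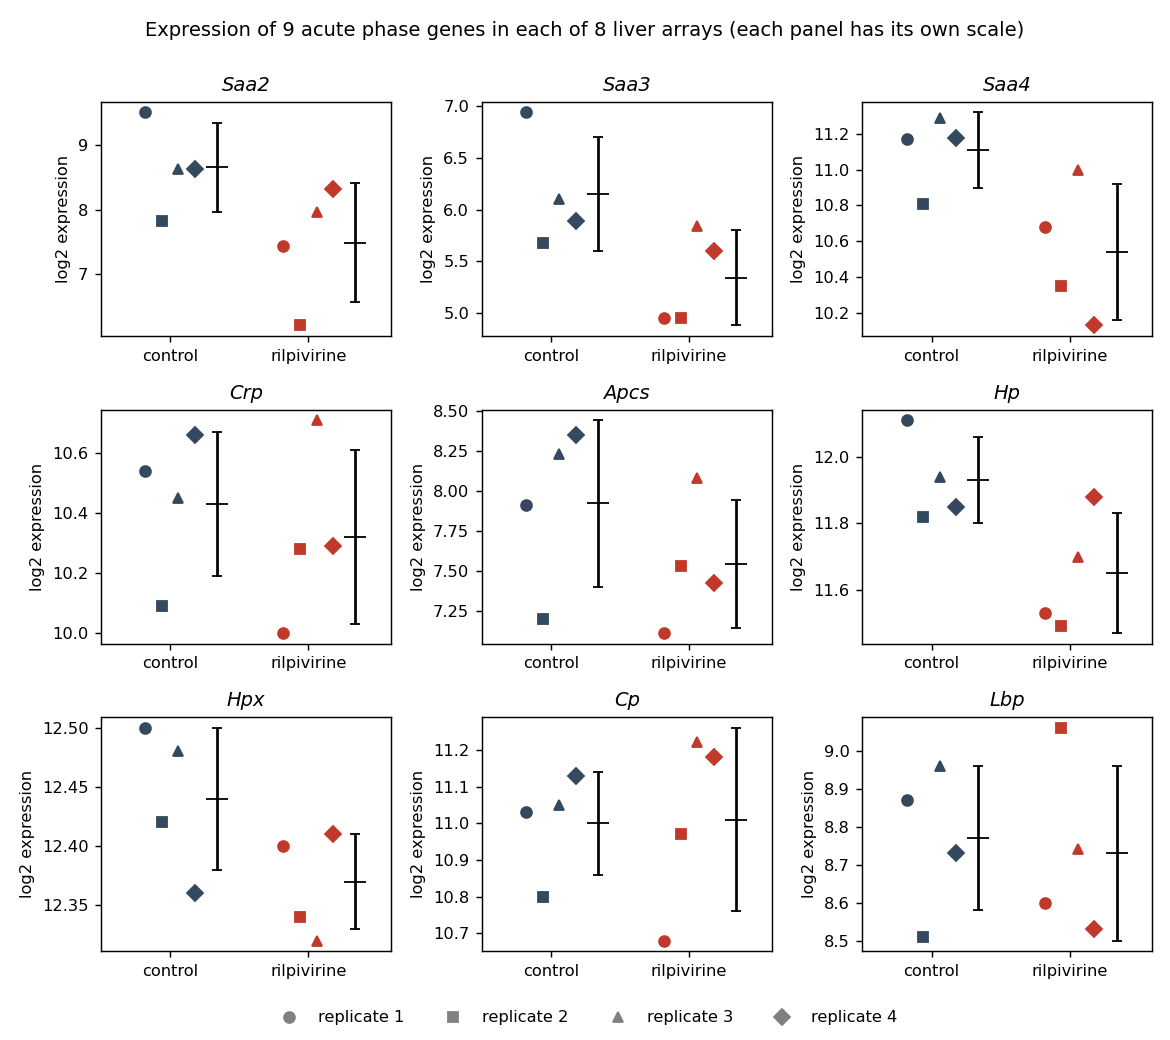
Log2 expression of the 9 acute phase genes (vertical axis, each panel with its own scale) in the 4 control and 4 rilpivirine samples, with a symbol for each replicate number and the mean with its SD as a bar beside them. The groups overlap in every panel, and control replicate 2 is the lowest control in all panels except Hpx.

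Saa2 encodes an inducible serum amyloid A of high-density lipoprotein. Its transcript measured 7.44, 6.21, 7.96 and 8.33 log2 in rilpivirine replicates 1 to 4 and 9.51, 7.83, 8.64 and 8.64 in control replicates 1 to 4. Rilpivirine replicate 2 was the lowest array and control replicate 1 the highest, and control replicate 2 lay inside the rilpivirine range. The mean of the rilpivirine group was 7.49 ± 0.92 (SD, n = 4), and that of the control group was 8.66 ± 0.69 (SD, n = 4). The log2 difference of -1.17 had a 95% interval of -2.14 to -0.21, with an unadjusted p of 0.0218 and an adjusted p of 0.890 in limma. An exact two-sided permutation test over the 70 arrangements of the samples gave p = 0.0857, where 0.0286 is the smallest value that this design allows. The values of Saa2 spanned 9.84-fold over the 8 arrays, and its SD within groups (0.81) was above that of 99.6% of all genes tested.

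The difference in Saa2 rested in part on the arrays at the ends of its range. Leaving out rilpivirine replicate 2 gave -0.75, and leaving out control replicate 1 gave -0.89. Leaving out both, a choice made after the values were seen, gave -0.46, and leaving out rilpivirine replicates 1 and 2 gave -0.51. In each of these cases the unadjusted p of Saa2 in limma was no longer under 0.05. Rilpivirine replicate 2 and control replicate 1 were also the highest and the lowest array in small nucleolar RNA, and when that level entered the fit the difference was -0.50, with the unadjusted p still under 0.05. The part of RNA quality or hybridization in these values was not tested.

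Saa3 encodes the serum amyloid that is also made outside hepatocytes, in macrophages and fat. It measured 4.95, 4.95, 5.84 and 5.60 log2 in rilpivirine replicates 1 to 4 and 6.94, 5.68, 6.10 and 5.89 in control replicates 1 to 4. Here 3 of the rilpivirine samples lay below all controls, and rilpivirine replicate 3 lay between control replicates 2 and 4. The log2 difference was -0.82 (95% interval -1.44 to -0.19), with an unadjusted p of 0.0150 and an adjusted p of 0.855 in limma and an exact permutation p of 0.0571. Leaving out rilpivirine replicates 1 and 2 gave -0.43, where the unadjusted p was no longer under 0.05, and leaving out control replicate 1 gave -0.55. When the small nucleolar RNA level entered the fit the difference was also -0.43.

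Saa4 encodes the constitutive serum amyloid. It measured 10.68, 10.35, 11.00 and 10.13 log2 in rilpivirine replicates 1 to 4 and 11.17, 10.81, 11.29 and 11.18 in control replicates 1 to 4. All rilpivirine samples except replicate 3 lay below all controls, and replicate 3 exceeded only control replicate 2. The log2 difference was -0.57 (95% interval -0.99 to -0.15), with an unadjusted p of 0.0117 and an adjusted p of 0.849 in limma and an exact permutation p of 0.0571. It was smaller than that of Saa2 and Saa3 but moved less with the choice of arrays: leaving out rilpivirine replicates 1 and 2 gave -0.54, the small nucleolar RNA level in the fit gave -0.53, and leaving out any single sample gave -0.72 to -0.43. The unadjusted p stayed under 0.05 in each of these, but not when control replicate 1 and rilpivirine replicate 2 were left out together (-0.49).

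The probe set listed for both Saa1 and Saa2 cannot be credited to either gene. It measured 7.33, 5.88, 7.78 and 7.95 log2 in rilpivirine replicates 1 to 4 and 9.69, 7.94, 8.42 and 8.85 in control replicates 1 to 4. Its log2 difference was -1.49 (95% interval -2.50 to -0.49), with an unadjusted p of 0.00761 and an adjusted p of 0.809 in limma when it was added to the table of genes after the values were seen. Only control replicate 2 reached into the rilpivirine range, just under rilpivirine replicate 4. Over the 8 arrays it followed the probe set of Saa2 (Pearson r = 0.98, exact permutation p = 0.000149, adjusted p = 0.000447 over 3 relations; Spearman rho = 0.95, p = 0.00114; r = 0.91 without rilpivirine replicate 2 and control replicate 1). As both carry Saa2 sequence by annotation, they are not separate evidence.

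**Figure D2:**
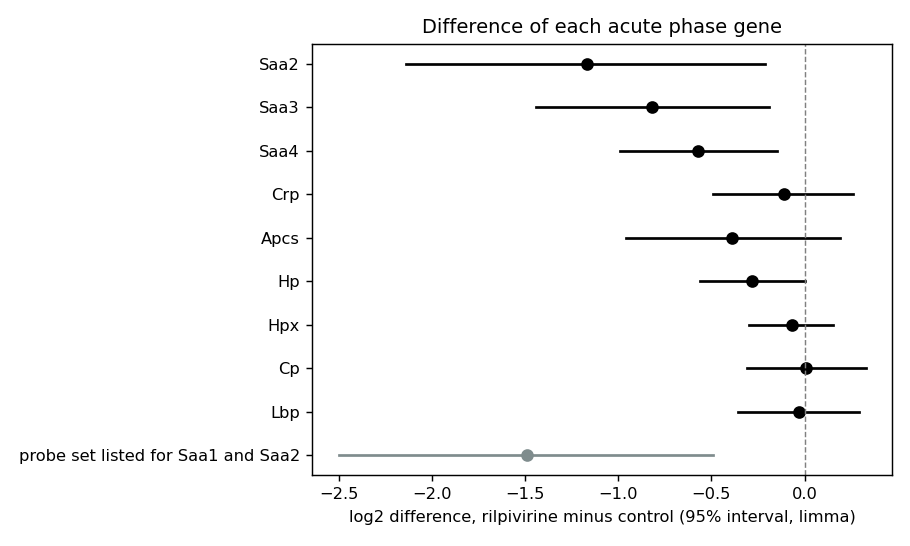
Log2 difference of rilpivirine minus control (horizontal axis) for each of the 9 genes, with the 95% interval of the limma fit, and in grey for the probe set listed for both Saa1 and Saa2. The intervals of Saa2, Saa3 and Saa4 lie below 0 before adjustment over genes, and that of Hp ends at 0.00076.

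The 4 serum amyloid genes lie next to each other on chromosome 7, in the order Saa3, Saa4, Saa1 and Saa2, with no other protein-coding gene of the RefSeq table between them. The 4 protein-coding genes before and the 4 after them give the values of their surroundings. The log2 differences of Kcnc1, Sergef, Tph1 and Saal1 on the Saa3 side were -0.15, -0.04, 0.05 and -0.12. Those of Hps5, Gtf2h1, Ldha and Ldhc on the Saa2 side were 0.03, -0.59, -0.17 and -0.01. None of these 8 neighbours had an unadjusted p under 0.05, and the p of Gtf2h1, which encodes a subunit of the transcription factor TFIIH, was 0.116 in limma.

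The promoters of the 4 genes show how alike Saa1 and Saa2 are beside Saa3 and Saa4. The 250 bases before the transcription start listed for each gene are printed from RefSeq (GRCm38.p6), 5′ to 3′ on the strand of the gene. Matches to the C/EBP core TTNNGNAA on either strand are in capitals. The listed starts of Saa1 and Saa3 lie inside the spans of these genes. The window of Saa3 is wholly within its span (46711998-46719615), and that of Saa1 partly within its own (46740497-46743181).
Saa1, chr7:46742981-46743230, minus strand: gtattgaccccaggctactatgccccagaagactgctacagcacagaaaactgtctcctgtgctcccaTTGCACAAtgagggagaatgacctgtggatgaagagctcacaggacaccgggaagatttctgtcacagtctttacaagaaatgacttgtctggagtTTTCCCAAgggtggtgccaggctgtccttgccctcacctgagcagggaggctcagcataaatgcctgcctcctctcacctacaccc
Saa2, chr7:46751583-46751832, plus strand: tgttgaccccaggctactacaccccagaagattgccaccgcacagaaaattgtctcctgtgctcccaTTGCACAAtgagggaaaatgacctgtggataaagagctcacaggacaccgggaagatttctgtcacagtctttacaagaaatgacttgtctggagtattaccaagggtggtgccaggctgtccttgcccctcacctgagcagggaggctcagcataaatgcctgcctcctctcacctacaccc
Saa3, chr7:46715677-46715926, minus strand: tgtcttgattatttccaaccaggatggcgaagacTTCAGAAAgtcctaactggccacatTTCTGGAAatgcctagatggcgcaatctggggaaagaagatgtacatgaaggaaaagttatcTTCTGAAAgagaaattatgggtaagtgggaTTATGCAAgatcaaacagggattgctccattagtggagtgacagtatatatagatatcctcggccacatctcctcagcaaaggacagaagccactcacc
Saa4, chr7:46732604-46732853, minus strand: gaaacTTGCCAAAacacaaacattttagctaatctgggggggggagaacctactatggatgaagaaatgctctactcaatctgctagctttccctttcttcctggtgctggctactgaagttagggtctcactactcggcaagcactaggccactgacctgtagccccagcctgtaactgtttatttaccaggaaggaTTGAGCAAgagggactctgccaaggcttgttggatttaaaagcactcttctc

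Aligned end to end, the windows of Saa1 and Saa2 were identical in 238 of 251 columns (94.8%), and the other pairs in 43.8% to 48.5%. The C/EBP letters occurred 2 times in the window of Saa1, 1 time in that of Saa2, 4 times in that of Saa3 and 2 times in that of Saa4, and at least once in 36.8% of the 32851 promoter windows of the table. Saa1 and Saa2 shared the match TTGCACAA, which began 182 bases before the start in Saa1 and 183 in Saa2. The letters TTCNNNGAA of a STAT site and the NF-κB consensus, searched on both strands with overlaps allowed, did not occur in any of the 4 windows, and occurred in 7.02% and 7.25% of all windows. Among the other members with an entry, Apcs had the STAT letters (TTCTAGGAA, which began 244 bases before the start), and Crp, Hpx and Cp had C/EBP letters. The table matched 8 of the 10 genes, all but Hp and Lbp.

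Hp encodes haptoglobin, which binds free haemoglobin for uptake by the macrophage receptor CD163. It measured 11.53, 11.49, 11.70 and 11.88 log2 in rilpivirine replicates 1 to 4 and 12.11, 11.82, 11.94 and 11.85 in control replicates 1 to 4. Rilpivirine replicate 4 was above control replicates 2 and 4, and the other 3 rilpivirine samples were below all controls. The log2 difference was -0.28 (95% interval -0.56 to 0.00076), with an unadjusted p of 0.0505 and an adjusted p of 0.890 in limma and an exact permutation p of 0.0857. Leaving out rilpivirine replicates 1 and 2 gave -0.14, and the small nucleolar RNA level in the fit gave -0.16. Cd163 itself differed by -0.18 ± 0.29 log2 (SE), and by 0.14 without rilpivirine replicate 4.

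Hpx encodes hemopexin, which binds free haem. It measured 12.40, 12.34, 12.32 and 12.41 log2 in rilpivirine replicates 1 to 4 and 12.50, 12.42, 12.48 and 12.36 in control replicates 1 to 4. Its spread was small: the SD within groups was 0.05, above that of only 0.3% of all genes tested, at a level near the top of the scale. The log2 difference was -0.07 (95% interval -0.30 to 0.15), and an exact permutation test gave p = 0.114.

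The differences of the pentraxins were smaller than the spread between samples of a group. Apcs encodes serum amyloid P, which binds amyloid fibrils and nuclear debris. It measured 7.11, 7.53, 8.08 and 7.42 log2 in rilpivirine replicates 1 to 4 and 7.91, 7.20, 8.23 and 8.35 in control replicates 1 to 4, with control replicate 2 the second lowest of all. The log2 difference was -0.39 (95% interval -0.96 to 0.19; exact permutation p = 0.314). Leaving out control replicate 2 gave -0.63 for Apcs, leaving out control replicate 4 gave -0.24, and leaving out rilpivirine replicate 1 gave -0.25. Crp, the C-reactive protein that binds phosphocholine and activates complement, measured 10.005, 10.28, 10.71 and 10.29 log2 in rilpivirine replicates 1 to 4 and 10.54, 10.09, 10.45 and 10.66 in control replicates 1 to 4. The highest and the lowest array of Crp were both rilpivirine samples, and the log2 difference was -0.11 (95% interval -0.49 to 0.26).

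Cp and Lbp had the smallest differences. Cp encodes ceruloplasmin, the copper-carrying ferroxidase of plasma. It measured 10.68, 10.97, 11.22 and 11.18 log2 in rilpivirine replicates 1 to 4 and 11.03, 10.80, 11.05 and 11.13 in control replicates 1 to 4, so that the rilpivirine samples held both ends of the range. Its log2 difference was 0.0095 (95% interval -0.31 to 0.33), and its sign turned when arrays were centred on their medians (-0.0049). Lbp encodes the protein that passes lipopolysaccharide to CD14 and TLR4. It measured 8.60, 9.06, 8.74 and 8.53 log2 in rilpivirine replicates 1 to 4 and 8.87, 8.51, 8.96 and 8.73 in control replicates 1 to 4. Its highest array was rilpivirine replicate 2, the lowest array of Saa2, and its log2 difference was -0.03 (95% interval -0.36 to 0.29), or 0.0035 after a further quantile normalization.

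Read by array, the members did not simply divide by group. Control replicate 2 was the lowest control in 8 of 9 members, and its mean deviation from the 8-array means was -0.17 log2, below that of rilpivirine replicates 3 (0.10) and 4 (-0.10). Rilpivirine replicate 3 was the highest of its group in 5 of 9 members, and replicates 1 and 2 had mean deviations of -0.37 and -0.39. The other controls had mean deviations of 0.43, 0.27 and 0.23 in replicates 1, 3 and 4. For the 3 serum amyloids alone the deviations ran from -1.04 to 0.05 with rilpivirine and from -0.11 to 0.99 in controls, and for the other 6 members from -0.29 to 0.12 and from -0.20 to 0.17. Without control replicate 2, 9 of 9 members were lower with rilpivirine and 4 had an unadjusted p under 0.05 in limma, where 3.91% of all genes were lower at that p in the same fit.

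Some of the members varied together over the arrays, with calls that rested on few arrays. Of 36 pairs, 31 had a positive Pearson correlation, with a median of 0.49. How often pairs of other genes correlate as closely on these arrays was not tested, so these counts have no share over all genes beside them. In an exact permutation test, 7 pairs had an unadjusted p under 0.05 and 4 pairs had an adjusted p under 0.05 over the 36. These 4 became 1 with Spearman's rho and 0 when each pair was tested without the 2 arrays farthest from the median (smallest adjusted p = 0.171), and they were also 0 when rilpivirine replicate 1, rilpivirine replicate 2 or control replicate 1 alone was left out. Saa2 and Hp had r = 0.93 (exact permutation p = 0.000372, adjusted p = 0.0134; Spearman rho = 0.95, p = 0.00114), and r = 0.87 without rilpivirine replicate 2 and control replicate 1. Saa3 and Hp had r = 0.93 (exact permutation p = 0.00206, adjusted p = 0.0280; rho = 0.81, p = 0.0218), and r = 0.84 without replicate 1 of each group. Saa2 and Saa3 had r = 0.90 (exact permutation p = 0.00446, adjusted p = 0.0402; rho = 0.90, p = 0.00456), and r = 0.82 without rilpivirine replicate 2 and control replicate 1.

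The pentraxins formed the other close pair. Crp and Apcs, both short pentraxins, had r = 0.92 (exact permutation p = 0.00233, adjusted p = 0.0280; rho = 0.86, p = 0.0107), and r = 0.92 without rilpivirine replicates 1 and 3. Crp and Cp had r = 0.85 (exact permutation p = 0.00816, adjusted p = 0.0588; rho = 0.83, p = 0.0154), and r = 0.65 without these 2 arrays. After each group's mean was subtracted, so that a difference between the groups could not add to it, r was 0.93 for Crp with Apcs, 0.88 for Saa2 with Hp, 0.86 for Saa3 with Hp and 0.82 for Saa2 with Saa3. Lbp had correlations of -0.15 to Saa2, 0.15 to Saa3 and -0.04 to Hp, and of 0.51 to Apcs, 0.39 to Crp and 0.24 to Cp. Saa4 correlated with Apcs (r = 0.71, exact permutation p = 0.0543, adjusted p = 0.244; rho = 0.76, p = 0.0368; r = 0.91 without the 2 farthest arrays). Its r was 0.61 with Saa2 (rho = 0.69) and 0.66 with Saa3, where rho (0.83) was above that with Apcs. After each group's mean was subtracted, r of Saa4 was 0.27 with Saa2, 0.33 with Saa3, -0.06 with Hp and 0.64 with Apcs.

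**Figure D3:**
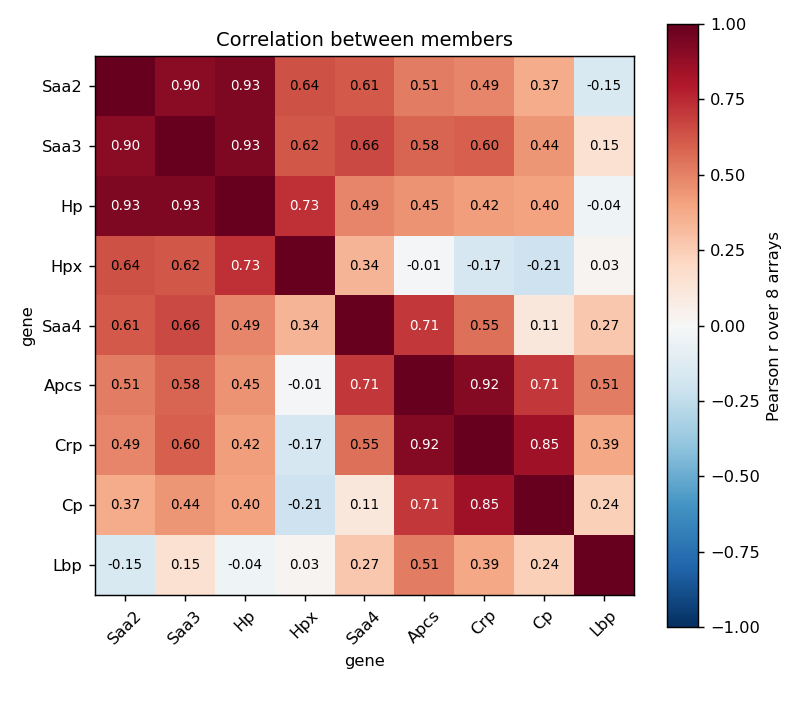
Pearson correlation over the 8 arrays for each pair of the 9 genes, from -1 (blue) to 1 (red), with the value in each cell. Saa2, Saa3 and Hp form a block of 0.90 to 0.93, and Apcs, Crp and Cp a block of 0.71 to 0.92.

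**Figure D4:**
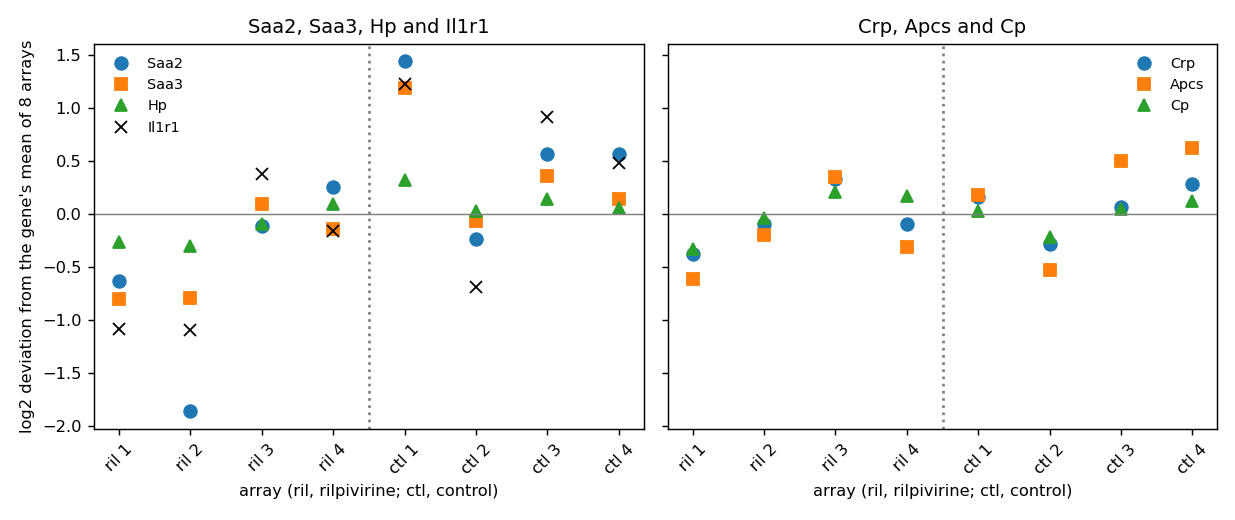
Log2 deviation of each array (horizontal axis) from the mean of the 8 arrays for Saa2, Saa3, Hp and Il1r1 on the left and for Crp, Apcs and Cp on the right, with a dotted line between the groups. On the left control replicate 1 is highest and rilpivirine replicates 1 and 2 are lowest, while on the right rilpivirine replicate 3 lies with the higher controls and control replicate 2 with the lower rilpivirine samples.

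Whether members differed in their response was tested on the log2 ratio of each pair per array. Of 36 pairs, 4 had an exact permutation p under 0.05, each at the smallest value possible (0.0286), and 0 pairs passed after adjustment over the 36 (smallest adjusted p = 0.206). The 4 pairs set Saa3 against Cp and Lbp, with differences of the ratio of -0.83 ± 0.29 and -0.78 ± 0.37 log2 (SE), and Saa4 against the same genes, with -0.58 ± 0.24 and -0.54 ± 0.23 (SE). Saa2 against Cp had a difference of -1.18 ± 0.52 (SE; exact permutation p = 0.0571). Among the serum amyloids, the ratio of Saa2 to Saa4 differed by -0.60 ± 0.56 (SE; exact permutation p = 0.314).

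The genes whose pattern over the 8 arrays was most like the mean of the 9 members, each standardized, were Il1r1, Coa6, Foxn3, Arhgef26, Cobll1, Tarsl2, Tlr8 and Pfkfb2, with Pearson r from 0.951 to 0.988 as a description. Il1r1, the signalling receptor of interleukin 1, was first of all genes outside the list. It measured 5.82, 5.81, 7.28 and 6.74 log2 in rilpivirine replicates 1 to 4 and 8.13, 6.21, 7.82 and 7.38 in control replicates 1 to 4, so that control replicate 2 again lay among the rilpivirine values. Its log2 difference was -0.97 ± 0.42 (SE), with an unadjusted p of 0.0424 and an adjusted p of 0.890 in limma. The difference of Il1r1 was -0.38 without rilpivirine replicates 1 and 2, -0.41 with the small nucleolar RNA level in the fit and -0.73 without control replicate 1. In each of these, and without rilpivirine replicate 1 or 2 or control replicate 3 or 4 alone, the unadjusted p was no longer under 0.05. How high r would be by chance among 16635 genes was not tested.

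Upstream of the members, the receptors Il6ra and Il1r1 had the largest differences of their list. Of 32 cytokines, receptors, kinases, transcription factors and inhibitors of the acute phase, 27 were tested. The rilpivirine mean was lower in 21 and higher in 6, where 56.9% of all genes tested were lower, and the median difference was -0.08. At an unadjusted p under 0.05, 3 were lower (Il6ra, Stat3 and Il1r1), where 3.21% of all genes were. Il6ra, the interleukin 6 receptor, measured 7.67, 7.43, 8.03 and 6.40 log2 in rilpivirine replicates 1 to 4 and 8.29, 7.74, 8.63 and 8.44 in control replicates 1 to 4. Its log2 difference was -0.89 ± 0.31 (SE), a 1.85-fold lower level, with an adjusted p of 0.855 in limma. Leaving out rilpivirine replicate 4, the lowest array of Il6ra, gave -0.56. Stat3 differed by -0.30 ± 0.12 (SE), and its unadjusted p was no longer under 0.05 without rilpivirine replicate 2, 3 or 4 or control replicate 1 or 3. Cebpb, a C/EBP factor, differed by -0.47 ± 0.26 (SE), by -0.26 without rilpivirine replicate 2 and by -0.21 with the small nucleolar RNA level in the fit. The shared signalling chain Il6st differed by -0.04 ± 0.10, Cebpd by -0.12 ± 0.19 and the feedback inhibitor Socs3 by 0.04 ± 0.14 (SE each). The cytokine transcripts Il6, Il11 and Il22 lay below the filter and were not tested.

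Most other positive acute phase proteins lay on the same side as the serum amyloids, some of them by very little. Of 25 listed, 23 were tested. The rilpivirine mean was lower in 22 and higher in 1, where 56.9% of all genes tested were lower, and the median difference was -0.32. At an unadjusted p under 0.05, 9 were lower and 0 higher, where 3.21% of all genes were lower and 2.0% (333 genes) higher. The 8 with the smallest p were Lcn2, Lrg1, Orm3, Mt2, Orm1, Mt1, Fgl1 and Orm2, with log2 differences of -2.0 to -0.45. Lcn2 (lipocalin 2), at -1.16, and Lrg1, at -0.66, had groups that did not overlap, as did Orm3, at -1.19, where 1.73% of all genes had such groups in the lower direction. Orm2, at -0.95, became -0.40 without rilpivirine replicates 1 and 2 and -0.43 with the small nucleolar RNA level in the fit, where its unadjusted p was no longer under 0.05. Adjusted over all genes, limma gave 0.595 for Lcn2 and Lrg1, and none passed. The list was chosen with earlier results of these data known, so its counts are not independent of them.

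Plasma proteins that decrease in an acute phase response differed little on the whole. Of 12 such genes 11 were tested, the rilpivirine mean was lower in 9 and higher in 2, and the median difference was -0.07. The 4 with the smallest p were Serpina6, which encodes the corticosteroid-binding globulin, with a log2 difference of -0.39 ± 0.14 (SE) and an unadjusted p under 0.05, Rbp4, the retinol-binding protein, with -0.16, Igf1 with -0.18 and F12 with -0.09. Rbp4 was the 1 gene of this list whose groups did not overlap. It measured 11.29 to 11.46 log2 with rilpivirine and 11.46 to 11.58 in controls, a gap smaller than the rounding of these values. Over all genes tested, 56.9% had a lower mean, 3.21% were lower at an unadjusted p under 0.05 and 1.73% had groups apart in the lower direction. Apoa1, the main protein of the lipoprotein that carries serum amyloid A, differed by 0.01 ± 0.11 (SE), and its sign turned when arrays were centred (-0.00071).

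Of 29 partners and receptors of the member proteins 25 were tested, the rilpivirine mean was lower in 16 and higher in 9, and the median difference was -0.07. The 3 at an unadjusted p under 0.05 were all lower. They were the Fc receptor Fcgr3, which also binds pentraxins, with -0.44 ± 0.11, and the complement chains C1qb with -0.50 ± 0.14 and C1qa with -0.33 ± 0.11 (SE each). In each of them the groups did not overlap. Over all genes tested, 56.9% had a lower mean, 3.21% were lower at that p and 1.73% had groups apart in the lower direction. C4b, the next by p, differed by -0.23 ± 0.12 (SE). The lipopolysaccharide receptors beside Lbp differed by -0.02 ± 0.11 for Cd14, with 0.01 after a further quantile normalization, and by 0.21 ± 0.15 for Tlr4 (SE each), which became 0.09 without rilpivirine replicate 3.

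**Figure D5:**
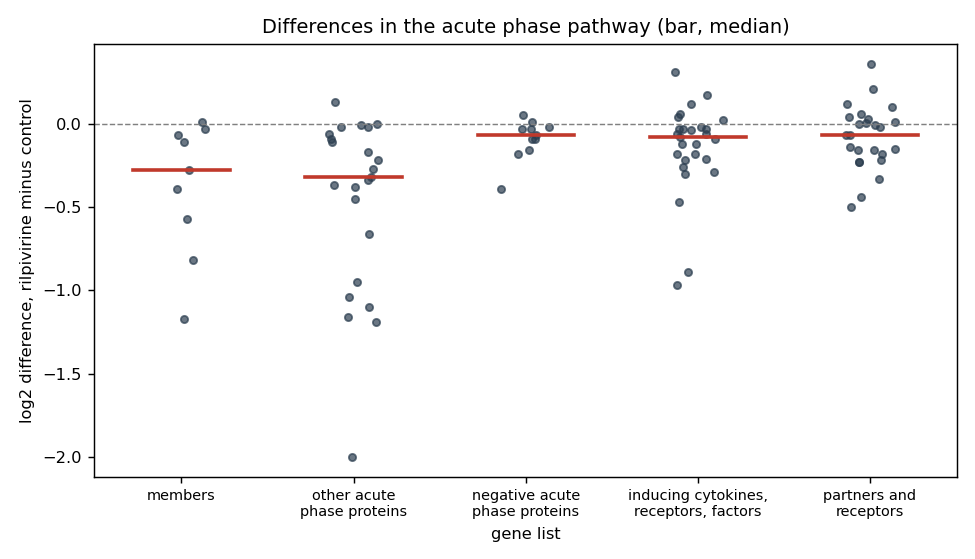
Log2 difference of rilpivirine minus control (vertical axis) for each gene of the members and of 4 other lists of the acute phase pathway, with the median as a bar. The medians of the members (-0.28) and of the other acute phase proteins (-0.32) lie below those of the remaining lists (-0.08 to -0.07). The lists were chosen with earlier results of these data known.

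Markers of other cells moved with the groups to some extent, and in whole liver fewer cells of a type and less RNA per cell cannot be told apart. Over all genes tested, 56.9% had a lower mean with rilpivirine. Of 10 Kupffer cell markers 9 were below and 1 above controls (median difference -0.13), and their summed linear level ran from 1510 to 1898 with rilpivirine and from 1796 to 2168 in controls. Among them Clec4f, Vsig4, Timd4 and Cd5l differed by -0.13, -0.01, -0.04 and 0.04 log2, and C1qb by -0.50. Of 8 tested markers of monocytes and recruited macrophages all 8 were lower (median -0.30), with sums of 475 to 822 and 577 to 893, and Ccr2 was below the filter. Of 6 tested neutrophil markers 1 was lower and 5 higher (median 0.06), and S100a8, S100a9, Retnlg and Camp were below the filter. Of 4 tested adipocyte markers 3 were higher and 1 lower (median 0.12), and Adipoq was below the filter. Of the 12 hepatocyte markers 8 were lower and 4 higher (median -0.08). Sinusoidal endothelial markers lay on the other side: of 8, 7 were higher and 1 lower (median 0.29), and their summed level ran from 1953 to 2549 with rilpivirine and from 1725 to 2144 in controls. Kdr (0.43), Stab2 (0.40) and Oit3 (0.40) of this list were higher at an unadjusted p under 0.05, where 2.0% of all genes were. In the lower direction 2 Kupffer cell markers (C1qa and C1qb, also counted among the partners) and 2 monocyte markers had such a p. So did 1 hepatocyte marker (Pck1, -0.62), where 3.21% of all genes were lower at that p. Of 8 stellate cell markers 4 were lower and 4 higher (median -0.05), and of 5 tested cholangiocyte markers 2 were lower and 3 higher (median 0.12). The part of these cells in the serum amyloid values, and in those of Saa3 in particular, was not tested.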

How the data were processed

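Liver RNA of 8 samples, 300 ng each per the labels' protocols, was measured on 1-colour Affymetrix arrays. The authors deposited log2 expression values of 41345 probe sets made with RMA (background correction, quantile normalization and summary of probes), and used limma, per the submitters' processing notes, with no version or genome build stated in these sources. RMA equalizes the arrays, so a change in total RNA cannot be seen, and neighbouring genes with near-identical sequence can share signal.

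The platform annotation named the probe sets: 23521 had 1 symbol, 1814 several and 16010 none. The row with the highest mean was kept for each of 22180 genes, and 16635 with a mean of at least the 25th percentile were tested in limma 3.58.1 under R 4.3.3 (lmFit, eBayes; two-sided, no covariates), with Benjamini-Hochberg adjustment over all of them, a threshold of 0.05 and 95% intervals. The number of arrays limits the precision. Fold changes are 2 to the power of the log2 difference. The fit was tested on simulated data. Single genes, ratios and correlations were tested by exact permutation; as Saa1 had no row, 36 pairs of 9 genes were tested in place of the planned 45. Genes of like pattern were the 8 with the highest r.

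The members and lists were chosen with earlier results of these data known. All members are named, with the 4 genes of smallest p in each pathway list (8 for other acute phase proteins), 11 genes fixed by name, and the neighbours of the serum amyloids, added later. Same-numbered samples of both groups did not deviate together throughout (r of -0.25, 0.46, -0.09 and 0.07), so the numbers were not taken as pairs. The exception was rilpivirine replicate 2, whose highest r with a control of another number was 0.05. Alternatives were trend and robust moderation, array weights, median centring, quantile normalization, other filters, the mean of a gene's rows, Welch statistics, a replicate block, samples left out, and a small nucleolar RNA covariate.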

Additional observations from a re-analysis of the deposited data

Results flagged for a closer look

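Samples far from the other 3 of their group were looked for in 86 groups of 4 (43 genes), and 6 were found. Chance gives about 1 in 20 groups, so 6 of 86 is near that share. None of the 18 groups of the 9 members was among them.

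Orm1 measured 9.77 log2 in control replicate 2, against 10.12 to 10.19 in the other controls. Orm2 measured 8.99 in control replicate 1, against 7.76 to 7.96. C4b measured 10.37 in control replicate 4, against 10.54 to 10.56. Cebpd measured 4.18 in rilpivirine replicate 3, where the group's other values were 3.67 to 3.72. Apoa1 measured 11.63 in rilpivirine replicate 4, against 11.81 in the rest. Coa6, a gene of like pattern, measured 5.33 in control replicate 2, against 6.19 to 6.34.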

How the results depend on the processing

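Under each of 21 alternatives (19 planned and 2 added after seeing the data) 0 members and 0 genes passed the threshold in limma or by Welch statistics, 7 to 9 members were lower, and the median difference of the members lay between -0.35 and -0.14. The count of members lower at an unadjusted p under 0.05, 3 in the main fit, became 1 with Welch statistics and 1 without rilpivirine replicates 1 and 2 together. The 1 with Welch statistics was Hp, which is not among the 3 of the main fit. Hp was also under 0.05 in limma with trend and robust moderation (0.0418), without the filter (0.0453) and with the mean of a gene's rows (0.0483). The count became 0 without control replicate 1 and rilpivirine replicate 2 together, and ran from 2 to 4 with single samples left out. At an unadjusted p under 0.01 there were 0 in the main limma fit, but not under every alternative. Saa4 had 0.0083 with array weights and 0.00999 with further quantile normalization in limma. Without rilpivirine replicate 3, Saa3 and Saa4 had 0.00665 and 0.00169 in limma. Without rilpivirine replicate 4, Saa2 had 0.00675 in limma. Without control replicate 2, Saa2, Saa3 and Saa4 had 0.00875, 0.00818 and 0.00688 in limma. With the replicate number as a block, 3 members were lower at an unadjusted p under 0.05, the median was -0.28 and 0 genes passed after adjustment. Saa2 and Saa4 then had an unadjusted p under 0.01, and Cebpb, Arhgef26 and Tarsl2 one under 0.05. The 4 correlated pairs became 1 with Spearman's rho, 0 without the 2 arrays farthest from the median, and 0 to 7 with single samples left out: 0 without rilpivirine replicate 1, rilpivirine replicate 2 or control replicate 1, and 7 without rilpivirine replicate 4.

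Of 902 single-gene values under the alternatives, 870 kept their direction and 32 did not, all in 9 of the 43 genes, and 0 passed after adjustment. Crp was 0.01 with the covariate of small nucleolar RNA and 0.06 without rilpivirine replicates 1 and 2 together. Cp was -0.02 with array weights, -0.0049 after centring and -0.06 to 0.12 with single samples left out. Lbp was 0.0035 after quantile normalization and -0.14 to 0.03 with single samples left out. Igf1 was 0.0035 and Cebpd 0.0077 without rilpivirine replicates 1 and 2 together, and Cebpd ran from -0.24 to 0.0038 with single samples left out. Socs3 was -0.06 with array weights, -0.07 as the mean of its rows, -0.04 without control replicate 1 and rilpivirine replicate 2 together, and -0.04 to 0.15 with single samples left out. Apoa1 was -0.02 with array weights, -0.00071 after centring, -0.03 without either pair of arrays, -0.02 with the covariate and -0.02 to 0.06 with single samples left out. Cd14 was 0.01 after quantile normalization and -0.06 to 0.03 with single samples left out, and Cd163 -0.37 to 0.14. The causes were not tested. No member had a second probe set to compare.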
